A study of Bos taurus with 8 samples.

Results

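The genes described here are the heat shock and chaperone genes of cattle blood mononuclear cells. They were chosen by name: every gene of the RNA tables whose symbol starts with HSPA, HSPB, HSPD, HSPE, HSPH, HSP90, DNAJA, DNAJB, DNAJC, CCT or BAG followed by a digit. The rule found 82 of 21861 listed genes, namely 13 HSPA, 8 HSPB, 1 HSPD, 1 HSPE, 1 HSPH, 4 DNAJA, 12 DNAJB, 28 DNAJC, 9 CCT and 5 BAG genes. The rule itself uses names and no measured value. The 3 HSP90 genes (HSP90AA1, HSP90AB1, HSP90B1) carry a letter where the rule asks for a digit, so they are not among the 82. They are given as related genes, and 2 lists used below include them: HSP90B1 is 1 of the 10 ER genes, and HSP90AA1 and HSP90AB1 are in the HSF list.

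Chaperones bind proteins that are not folded and keep them from clumping. HSP70 proteins (HSPA) work in cycles with J-domain partners (DNAJ), which hand them their clients, and with exchange factors such as the BAG proteins and HSPH1, which release the nucleotide. The CCT subunits form a ring-shaped cytosolic chaperonin that folds actin and tubulin, HSPD1 and HSPE1 form the mitochondrial chaperonin, small heat shock proteins (HSPB) hold clients without using ATP, and HSPA5 with its ER J-proteins folds secreted and membrane proteins. Heat shock factor (HSF) drives many of the cytosolic genes, and the unfolded protein response drives many of the ER genes.

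Whole blood of 4 lactating female Holstein cattle, 2 years old, was pooled and divided into parts that received no lipopolysaccharide (LPS, the bacterial cell wall component that Toll-like receptor 4 senses) or LPS at 2 µg/ml and 37 °C, lasting 2 h, 4 h or 8 h. Mononuclear cells were isolated after the treatment, and each part gave 1 single-cell RNA library and 1 single-cell chromatin accessibility library. How long the part without LPS was incubated is not given in the sources used here, so LPS and time in culture cannot be told apart. With 1 library per treatment there is no replicate of a treatment, and no p-value is given for LPS against no LPS.

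After cell filtering, 3411 to 9865 cells and 16657841 to 47875879 UMIs (unique molecular identifiers, counted RNA molecules) remained per RNA library, and RNA libraries shared 8 to 24 cell barcodes pairwise. Cells gated on CD14 made up 9.04% of the library without LPS. Their share was 3.12%, 1.58% and 1.94% with 2 h, 4 h and 8 h of LPS. The summed level of 10 monocyte markers moved with this, at 5184, 1715, 905 and 2106 CPM, the UMIs of a gene scaled to a total of 1e+06. In sums over all cells, fewer cells of a type and less RNA per cell cannot be told apart. The gate counts CD14 RNA, so fewer monocytes and less CD14 RNA per cell cannot be told apart either.

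Of the 82 genes, 74 had at least 1 UMI in the cells kept and 18 reached 100 CPM in at least 1 library. The 8 without a UMI were CCT8L2, DNAJB7, DNAJB8, DNAJC5B, DNAJC5G, DNAJC22, HSPA12A and HSPB3, for which a count of 0 allows up to 0.0627 to 0.180 CPM in the 4 libraries. Comparisons used the 62 genes with at least 100 UMIs over the pair of libraries. A gene was called when log2((CPM + 1)/(CPM + 1)) was past 1.5-fold, or 0.585, a rule of size and not a test.

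Over all cells, 3 of the 62 genes were higher at 2 h and 1 was lower, where 3.59% and 6.75% of all 10260 genes compared were higher and lower. At 4 h 6 were higher and 1 was lower, beside 5.4% and 9.5% of all genes. At 8 h 2 were higher and 2 were lower, beside 4.7% and 6.89%. Read against these shares, the higher calls were near that of all genes at 2 h and 8 h and above it at 4 h, and the lower calls were under it at each time. The median log2 ratio of the chaperone genes was 0.14, 0.23 and 0.20 in order of time, and that of all genes was -0.03, 0.04 and 0.11. Changes at 8 h are read against that shift, since TMM scaling moved the median of all genes at 8 h from 0.11 to -0.01 and that of the chaperone genes to 0.08. All 3 comparisons share the same library without LPS. In these ratios 32 of the 62 genes lay above it at all 3 times and 11 below, and the highest level fell at 4 h for 27 genes, at 8 h for 17, without LPS for 11 and at 2 h for 7. The same counts were not made for all genes, so they describe the 62 and do not set them apart.

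HSPA8, the constitutive cytosolic HSP70, was the chaperone gene with the most UMIs. Its level was 858 CPM without LPS and 974.6, 994 and 886 CPM at the 3 times with LPS, log2 ratios of 0.18, 0.21 and 0.05. Its J-domain partner DNAJA1 stood at 147, 192, 205 and 155 CPM and DNAJA2 at 138, 159, 169 and 149 CPM. Neither partner nor HSPA8 was called. HSPA14 and DNAJC2, which sit on the ribosome as an HSP70 and its J-protein, were at 59.7, 82.3, 89.8 and 88.1 CPM and at 78.5, 107, 111 and 95.4 CPM. Both were lowest without LPS, with log2 ratios at 4 h of 0.58 and 0.49, under the call. DNAJC7, a J-protein that also binds HSP90, was at 83.5, 95.4, 102 and 90.3 CPM, and DNAJC8, which is found with the splicing machinery, at 103, 112, 140 and 135 CPM.

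Of the genes best known as inducible by heat, none but HSPB1 was called over all cells. HSPA1A, the stress-inducible HSP70, was at 32.9, 28.5, 34.6 and 44.3 CPM in the same order, and DNAJB1, the inducible J-protein, at 33.9, 37.5, 35.9 and 34.3 CPM. HSPH1, an HSP110 exchange factor, was at 20.3, 28.2, 29.9 and 30.5 CPM, a log2 ratio of 0.57 at 8 h that lies just under the call. HSPA6, another inducible HSP70, had 47, 39, 28 and 45 UMIs in the whole libraries, or 1.22, 0.815, 0.697 and 2.70 CPM. It was under the minimum of 100 UMIs in each comparison, so it could not be called, and its log2 ratio at 8 h was 0.74 (0.52 to 1.77). Of the 16 genes listed as HSF targets 12 could be compared: 0, 1 and 0 were higher at the 3 times and 1 was lower each time, with medians of 0.16, 0.27 and 0.17. The higher one was HSP90AB1, the constitutive cytosolic HSP90, at 1211, 1694, 1898 and 1779 CPM (log2 ratio 0.65 at 4 h), and the lower one was HSPB1. HSP90AA1, its inducible counterpart, was at 734, 1065, 937 and 770 CPM and was not called (log2 ratio 0.54 at 2 h).

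All 7 CCT subunits that could be compared lay above the library without LPS at every time. CCT6A (ENSBTAG00000008184) was at 119 CPM without LPS and 186, 198 and 161 CPM with LPS, log2 ratios of 0.64 (95% counting interval 0.59 to 0.70), 0.73 (0.69 to 0.79) and 0.43. CCT2 was at 190, 293, 278 and 230 CPM and was called at 2 h (0.62). CCT5 was at 136, 202, 220 and 168 CPM and was called at 4 h (0.68). The 9 genes named CCT summed to 933, 1313, 1381 and 1150 CPM, highest at 4 h, and the 7 subunits had medians of 0.46, 0.54 and 0.28. TCP1, a further subunit of the ring, is not named CCT and is in none of these sums. It was at 140, 137 and 118 CPM with LPS, log2 ratios of 0.46, 0.43 and 0.22. All intervals given here cover counting error only.

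Mitochondrial chaperones lay above the library without LPS too, all 7 at 2 h and 4 h and 6 of 7 at 8 h. HSPA9, the mitochondrial HSP70, was at 32.4, 47.1, 53.2 and 42.1 CPM and was called at 4 h (0.70). HSPD1 was at 170, 211, 237 and 232 CPM and its partner HSPE1 at 134, 147, 167 and 185 CPM, neither of them called. The 7 mitochondrial genes had medians of 0.29, 0.33 and 0.37.

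BAG2 (ENSBTAG00000005355), a co-chaperone that inhibits the ubiquitin ligase CHIP, was the one member higher at all 3 times. Its level was 9.01 CPM without LPS and 17.8, 20.3 and 22.0 CPM at 2 h, 4 h and 8 h, log2 ratios of 0.91 (0.80 to 1.17), 1.09 (0.99 to 1.35) and 1.2 (1.07 to 1.5). These intervals belong to the ratio without the pseudocount of 1 CPM, which pulls the log2 ratio of a low gene towards 0. The remaining higher calls were DNAJC17 at 4 h (0.71) and 8 h (0.59), from 13.7 to 23.0 and 21.1 CPM, and DNAJC12, a partner of the aromatic amino acid hydroxylases, at 4 h (0.81), from 3.30 to 6.52 CPM.

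HSPB1 (ENSBTAG00000011969), the small heat shock protein HSP27, moved the other way and was the one member lower at all 3 times. It stood at 121 CPM without LPS and 66.7, 49.5 and 63.2 CPM at 2 h, 4 h and 8 h, log2 ratios of -0.85, -1.27 (-1.36 to -1.21) and -0.92. The 2 other HSPB genes that could be compared, HSPB11 and HSPB8, were not called.

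Of the ER chaperones 1 was called. HSPA5 (ENSBTAG00000007662), the ER HSP70 also called BiP, was at 342, 365, 365 and 274 CPM, and DNAJB11, its J-protein for newly made chains, at 68.1, 60.3, 54.1 and 39.8 CPM, called lower at 8 h (-0.76). DNAJB9, a J-protein that also restrains the stress sensor IRE1, was at 31.4, 23.9, 21.7 and 21.9 CPM, with log2 ratios of -0.38 to -0.51. The 10 ER genes had medians of -0.05, -0.01 and -0.25. Plasma cell markers over all cells summed to 385, 312, 207 and 141 CPM in the same order, and their part in these values was not tested. Within the MS4A1 gate 8 of the 10 ER genes lay above 0 at 2 h and at 4 h, and 2 of the 10 did at 8 h, with a median of -0.08.

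**Figure D1:**
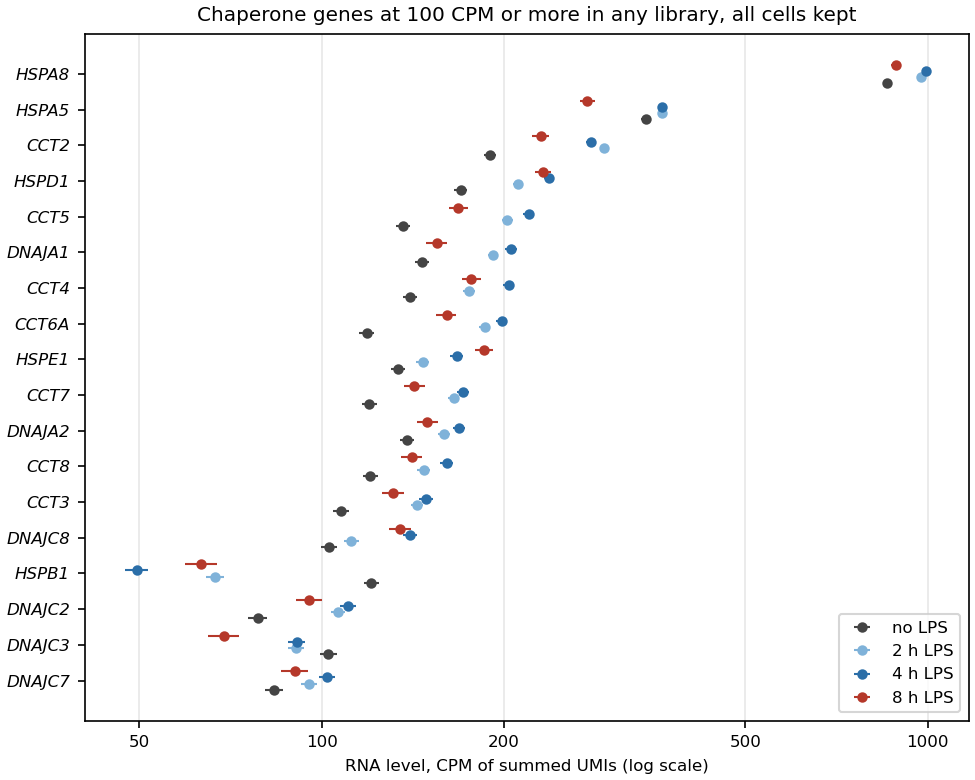
RNA level (x axis, CPM of summed UMIs, log scale) of the 18 chaperone genes at 100 CPM or more in at least 1 library, in the 4 libraries (colours), with 95% Poisson intervals as bars. The 7 CCT subunits lie lowest without LPS and HSPB1 lies highest there, at 121 CPM against 49.5 to 66.7 CPM with LPS.

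The values over all cells changed when the cell classes were given fixed weights. The 4 gates and the cells in no gate were weighted by their shares of UMIs in the library without LPS, an alternative chosen after seeing the data. The higher calls became 1, 2 and 1 and the lower calls 1, 1 and 0, with no share of all genes given. Cell number and RNA per cell stay mixed in these weights. BAG2 kept 0.77, 0.93 and 1.24, whereas HSPB1 came to -0.69, -0.81 and -0.39, CCT6A to 0.46, 0.50 and 0.29 and CCT2 to 0.46, 0.35 and 0.14. DNAJB11 turned to 0.13 and 0.24 at 2 h and 4 h and stayed at -0.31 at 8 h, and HSPA5 came to 0.30, 0.51 and -0.03. The within-gate values below are therefore the ones to read beside the sums.

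Cells were gated on 1 transcript each: CD14 for monocytes (at least 2 UMIs), CD3E for T cells, MS4A1 for B cells and NCR1 for NK cells (at least 1 UMI), with no UMI of the other 3. In the order no LPS, 2 h, 4 h and 8 h, the gates held 707, 308, 117 and 66 CD14 cells, 3482, 4937, 3857 and 1550 CD3E cells, 1692, 2392, 1894 and 663 MS4A1 cells and 58, 97, 90 and 38 NCR1 cells. The gates carried their own markers: the summed monocyte list was 14998 to 25927 CPM in the CD14 gate and 127 to 847 CPM in the other gates, and NK markers summed to 11144 to 14035 CPM in the NCR1 gate. The NCR1 gate also held T cell markers at 434 to 513 CPM, of which LCK gave 179 to 281 CPM, against 840 to 915 CPM in the CD3E gate. The median T cell marker was at 1.93 to 8.67 CPM in the NCR1 gate and at 59.6 to 74.2 CPM in the CD3E gate. The CD14 gate held CCL5, a chemokine on the NK list, at 1523 to 3125 CPM, while the median NK marker there was at 0.743 to 1.68 CPM. CD14-gated cells were deeper, with a median of 9882 UMIs against 4070 in the CD3E gate without LPS.

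Differences between gates were tested with edgeR's quasi-likelihood test on the 16 sums of 4 gates in 4 libraries, with the library as a term, each gate against the mean of the other 3. Its p-values measure the spread between 4 differently treated libraries of 1 blood pool. The scaling mattered: without TMM factors the median log2 difference of all genes moved from -0.12 to -1.19 in the CD14 gate, from 0.09 to 0.44 in the CD3E gate, from 0.10 to 0.52 in the MS4A1 gate and from -0.12 to 0.17 in the NCR1 gate. Under TMM 20 of 63 chaperone genes were higher and 18 lower in the CD14 gate (34.6% and 34.8% of all 10221 genes), 12 and 14 in the CD3E gate (30.6% and 22%), 26 and 15 in the MS4A1 gate (31.9% and 24.1%) and 8 and 13 in the NCR1 gate (15% and 15.2%). Without TMM factors these splits were 9 and 45, 23 and 6, 36 and 9, and 10 and 2. The shares of all genes under that scaling alone are not given, so these splits show the effect of scaling only. Called under both scalings were 9 higher and 18 lower in the CD14 gate (18.7% and 34.8%), 12 and 6 in the CD3E gate (30.6% and 12.9%), 26 and 9 in the MS4A1 gate (31.9% and 14.4%) and 8 and 2 in the NCR1 gate (15% and 8.03%). Of these counts the higher one in the MS4A1 gate stood above the share of all genes, and the others near or under it. Of the 63 genes HSPB8 would not have passed the filter on low counts without its levels in the MS4A1 and NCR1 gates, nor DNAJB4 and DNAJC6 without theirs in the NCR1 gate, so the counts describe the genes that passed. Directions below are named only where both scalings gave them. Each is against the mean of the other 3 gates, so 1 very high or very low gate among them can set a call.

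ER chaperones stood higher in the CD14 gate. DNAJB9 was at 96.8, 86.3, 173 and 89.6 CPM in the CD14 gate in the order no LPS, 2 h, 4 h and 8 h, and its levels in the other 3 gates did not overlap with these. Its log2 difference was 3.88 (SE 0.14, edgeR adjusted p 1.71e-14) under TMM and 2.83 without TMM factors, higher in 4 of 4 libraries. DNAJB11 was higher by 3.11 (SE 0.13, edgeR adjusted p 7.02e-14), HSPA5 by 2.64 (SE 0.14, edgeR adjusted p 1.78e-12) and DNAJC3, an inhibitor of the kinase PERK, by 2.52 on the log2 scale under TMM, each in 4 of 4 libraries. Of the 10 ER genes 6 were higher and 1 was lower under both scalings, the lower one being the ER disulfide reductase DNAJC10 at 8.61, 3.08, 4.4 and 6.29 CPM (log2 difference -2.55, edgeR adjusted p 5.29e-10). The list summed to 2032 to 3143 CPM in the CD14 gate, 798 to 960 CPM in the CD3E gate, 747 to 1098 CPM in the MS4A1 gate and 964 to 1422 CPM in the NCR1 gate. Plasma cell markers summed to 47.6 to 261 CPM in the CD14 gate and to 96.2 to 302 CPM in the MS4A1 gate, and their part in these levels was not tested.

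The remaining members higher in the CD14 gate under both scalings were HSPB1 (2.37), BAG3 (2.25), HSPA13 (1.71), DNAJC13 (1.55) and DNAJA1 (1.34, all log2 under TMM). BAG3 in the CD3E gate was at 58.3% to 198% of its level in the CD14 gate, and the mean of the other gates includes the low MS4A1 gate. HSPA13 is an ER-associated HSP70 and DNAJC13 acts in endosomes. Lower there, where 34.8% of all genes were, were 3 of 7 CCT genes, among them CCT6A (-1.28, edgeR adjusted p 4.33e-06) at 43.5, 16.8, 29.9 and 31.4 CPM, and 3 of 7 mitochondrial genes, HSPE1 (-0.46) among them. DNAJB2, a J-protein that binds ubiquitinated clients, had a log2 difference of -2.68.

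Chaperonin subunits stood higher in the MS4A1 gate. All 7 CCT subunits were higher in the MS4A1 gate under both scalings, from CCT6A with 1.495 (SE 0.14, edgeR adjusted p 7.03e-08) to CCT8 with 0.61. CCT6A was at 193, 318, 323 and 273 CPM in the MS4A1 gate, higher in 4 of 4 libraries. So were 6 of 7 mitochondrial genes, with HSPD1 higher by 0.84 and HSPE1 and HSPA9 by 0.85. BAG2 was higher by 1.94 (SE 0.23, edgeR adjusted p 8.37e-07), and DNAJC10 by 1.73 on the log2 scale. HSPB8, a small heat shock protein, was at 2.68, 2.60, 1.83 and 4.58 CPM there, on 18 to 32 UMIs per library, and since it passed the filter on low counts through these levels, they are a description.

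Against the mean of the other gates, BAG3 and 7 of the 10 ER genes were lower in the MS4A1 gate. For the ER genes that mean includes the high CD14 gate. The ER list summed to 773, 1076, 1098 and 747 CPM in the MS4A1 gate. In the CD3E gate it summed to 798, 920, 960 and 808 CPM. BAG3, which links HSP70 and HSPB8 to autophagy, was at 0.637, 0.406, 0.698 and 0.764 CPM in the MS4A1 gate, 3 to 8 UMIs per library, and at 7.16, 7.21, 6.71 and 7.33 CPM in the CD3E gate. Its log2 difference in the MS4A1 gate was -3.95 (SE 0.32, edgeR adjusted p 6.20e-09), lower in 4 of 4 libraries. The log2 differences of DNAJB9 and DNAJC3 were -2.00 and -1.85.

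**Figure D2:**
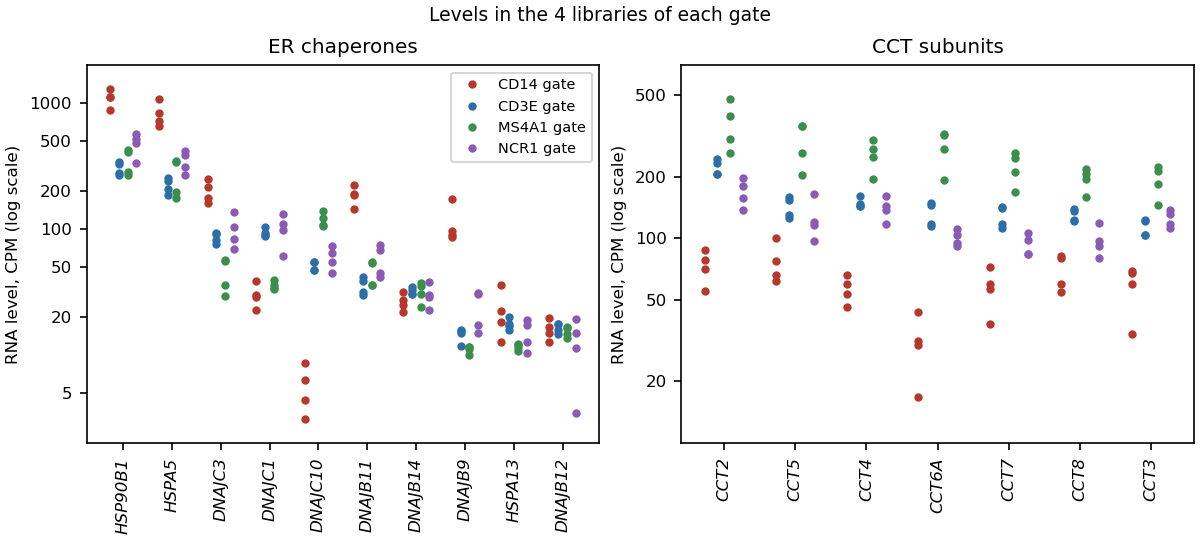
RNA level (y axis, CPM, log scale) of the 10 ER chaperones and the 7 CCT subunits compared, with 1 point for each of the 4 libraries in each gate (colours). The CD14 points lie above all others for DNAJB9 and DNAJB11 and below the CD3E and MS4A1 points for every CCT subunit, and below all others for DNAJC10, and the MS4A1 points lead for CCT6A.

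In the CD3E gate DNAJC12 was at 4.99, 6.93, 9.97 and 6.73 CPM, a log2 difference of 1.83 (SE 0.34, edgeR adjusted p 2.14e-04), and HSPA1A at 32.5, 34.3, 35.2 and 42.8 CPM, a difference of 0.81 (SE 0.19, edgeR adjusted p 0.00169). DNAJC18 (1.36), DNAJC30 (1.16) and BAG3 (0.79) were also higher than the mean of the other gates. For BAG3 that mean includes the low MS4A1 gate. BAG3 here was at 76.5%, 198%, 95.3% and 58.3% of its level in the CD14 gate, above it only at 2 h. HSPB1 (-1.67), DNAJB11 (-1.47), DNAJB9 (-1.41), HSPA5 (-1.26) and HSPA8 (-0.77) were lower there, and none of the 7 CCT subunits passed under both scalings.

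The NCR1 gate rests on 38 to 97 cells per library. DNAJC6, the auxilin that strips clathrin coats from vesicles, had 2, 6, 7 and 11 UMIs there, or 6.94, 12.7, 13.5 and 41.9 CPM, against at most 1.53 CPM in any other gate. It passed the filter on low counts (1.88 CPM) only through this gate, so these levels are a description with no test. DNAJA4 (2.04), HSPA2 (1.77), DNAJB2 (1.43) and DNAJC10 (0.62) were higher than the mean of the other gates, and HSPD1 (-0.79) and HSPA8 (-0.67) were lower. DNAJA4 rests on 10, 8, 5 and 6 UMIs and HSPA2 on 5, 7, 3 and 6 UMIs. A stricter gate took the call of DNAJA4. DNAJC10 was at 45.1, 55.0, 73.2 and 64.7 CPM here and at 65.8, 61.1, 64.9 and 70.2 CPM over all cells. Its mean of the other gates includes the low CD14 gate. DNAJC21 was lower under TMM (-0.82) but lost its call without TMM factors (-0.52). Without the 4 h library the counts in this gate came to 5 higher and 5 lower, and without the 8 h library to 5 higher and 12 lower.

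Within gates, genes with at least 50 UMIs over the pair were compared. In the MS4A1 gate 13 of 59 chaperone genes were higher at 2 h and 2 lower, beside 7.19% and 11.9% of all genes. At 4 h 13 of 57 were higher and 2 lower, beside 8.22% and 15.4%, and at 8 h 3 of 56 were higher and 1 lower, beside 6.05% and 6.13%. The chaperone share of higher genes was above that of all genes at 2 h and 4 h. Medians were 0.25, 0.39 and 0.17 for the chaperone genes and -0.11, -0.07 and 0.01 for all genes, and TMM scaling, which moved the median of all genes at 2 h and 4 h to 0.01 and 0.05, gave 20 and 23 higher. With no upper limit on genes per cell 8 and 6 were higher. The share of all genes higher is not given for either alternative, so these counts are not read against it.

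CCT subunits were 5 of these 13 genes at 2 h and 4 of 13 at 4 h, of 7 compared, with medians of 0.64, 0.60 and 0.34 at the 3 times. CCT2 was at 260 CPM without LPS and 479, 395 and 304 CPM with LPS (0.88, 0.60 and 0.22), and CCT5 at 205, 354, 355 and 259 CPM (0.79, 0.79 and 0.34). Each was highest at 2 h or 4 h and nearer to the level without LPS at 8 h. The 9 genes named CCT summed to 1325, 2117, 2053 and 1676 CPM. In the CD3E gate they summed to 937, 1093, 1098 and 933 CPM with no subunit called, in the NCR1 gate to 787, 901, 854 and 841 CPM, and in the CD14 gate to 519, 307, 414 and 438 CPM. In the CD14 gate 5 of 7 subunits were lower at 2 h, where 46.3% of all genes were. Their median was -0.69 and that of all genes -0.54. TMM scaling moved the median of all genes there to -0.08 and left 5 of 46 chaperone genes lower, with no share of all genes given.

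HSPA5 in the MS4A1 gate was at 177 CPM without LPS and 339, 346 and 198 CPM with LPS, log2 ratios of 0.93 (0.85 to 1.03), 0.96 (0.88 to 1.06) and 0.16. Its partners DNAJC3 (35.8, 55.7, 56.7 and 29.5 CPM) and DNAJB11 (35.7, 54.8, 53.2 and 35.6 CPM) took the same course. With no upper limit on genes per cell the 2 h and 4 h ratios of HSPA5 fell to 0.38 and 0.23, under the call. Plasma cell markers in this gate summed to 231, 302, 207 and 96.2 CPM, and their part in the change was not tested.

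BAG2 in the MS4A1 gate was at 15.9, 37.3, 39.9 and 27.5 CPM, log2 ratios of 1.18 (0.94 to 1.52), 1.27 (1.04 to 1.62) and 0.75. In the CD3E gate it was at 6.24, 7.16, 8.14 and 6.97 CPM and was not called. HSPA9 rose past the call in the MS4A1 gate too, at 44.9, 75.9, 83.3 and 63.9 CPM. The remaining higher genes there were DNAJB6, an inhibitor of aggregation, DNAJC21, which acts in ribosome assembly, and DNAJC25 at 2 h and 4 h, DNAJA1 and the HSP110 relative HSPA4 at 4 h, and HSPH1 (0.74) and DNAJC24 (0.64) at 8 h. HSPA1A was lower at 2 h, at 24.6, 12.6, 18.8 and 27.2 CPM (log2 ratio -0.91 at 2 h), and DNAJC4 at 4 h.

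HSPB1 was called lower in every gate at 1 time or more. In the MS4A1 gate it was at 110, 68.6, 42.5 and 60.6 CPM (-0.67, -1.35 and -0.85), and in the CD3E gate at 68.5, 46.6, 38.3 and 42.2 CPM (-0.54, -0.82 and -0.69, the last pair called). In the CD14 gate it was at 238, 132, 166 and 259 CPM, called at 2 h (-0.85), which is -0.31 relative to the median of all genes in that comparison. In the NCR1 gate it was at 187, 104, 116 and 145 CPM on 38 to 60 UMIs, called at 2 h (-0.85) and 4 h (-0.69), and a stricter gate turned the 4 h ratio to 0.18, on 7 cells without LPS and 30 at 4 h and under the minimum of 50 UMIs. The CD3E and MS4A1 gates were thus below the level without LPS at all 3 times, and the CD14 gate was back at it at 8 h. HSPB1 in the CD3E gate was 16.3% to 35.3% of its level in the CD14 gate, whereas the median monocyte marker was there at 0.209% to 0.713%. In the MS4A1 gate the median monocyte marker was at 2.19% of the CD14 gate without LPS and 0.302% to 1.66% with LPS, and HSPB1 was at 46.1% and 23.4% to 52.0%. The part of monocyte RNA in the HSPB1 levels of these gates was not tested.

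**Figure D3:**
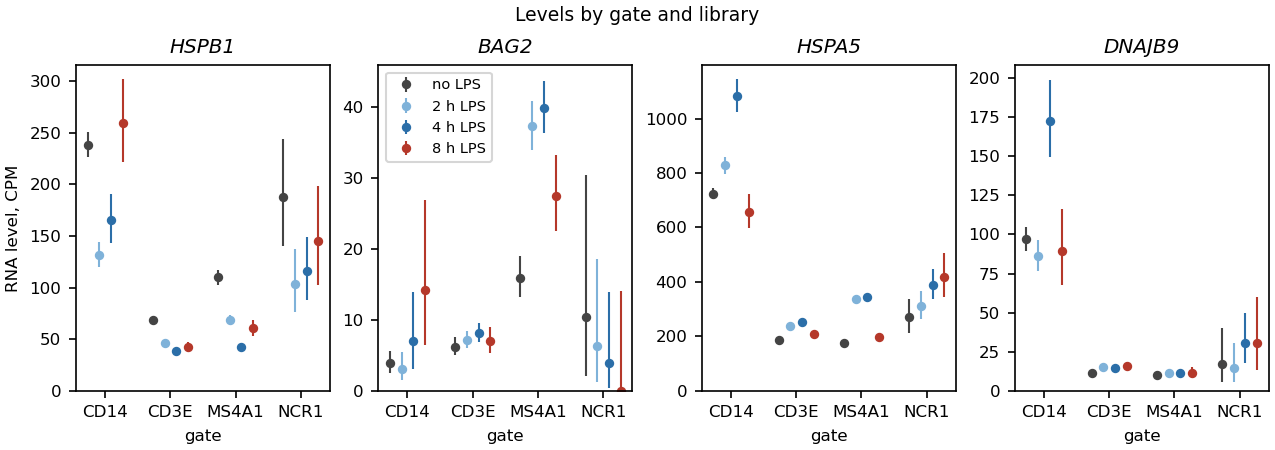
RNA level (y axis, CPM from 0) of HSPB1, BAG2, HSPA5 and DNAJB9 in the 4 gates (x axis) and 4 libraries (colours), with 95% Poisson intervals as bars. BAG2 separates from the library without LPS in the MS4A1 gate, at 15.9 against 27.5 to 39.9 CPM, and DNAJB9 peaks at 173 CPM in the CD14 gate at 4 h.

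In the CD14 gate RNA levels shifted as a whole. At 2 h 1 of 46 chaperone genes was higher and 19 were lower, where 7.38% and 46.3% of all genes were. At 4 h 3 were higher and 10 lower (11.4% and 25.7%), and at 8 h 2 were higher and 6 lower (11.6% and 16.4%). The medians were -0.52, -0.34 and -0.15 for the chaperone genes and -0.54, -0.20 and -0.07 for all genes. TMM scaling moved the 2 h median of all genes to -0.08 and gave 4 higher and 5 lower at 2 h, with no share of all genes given.

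Of the 10 ER genes 1 was called lower at 2 h, 2 were higher and 2 lower at 4 h, and 1 was lower at 8 h. DNAJB9 (0.83) and HSPA13 (0.96, from 18.1 to 36.1 CPM) were higher at 4 h, DNAJC10 (-0.83) and DNAJC1 (-0.74) were lower, and HSPA5 at 723, 828, 1084 and 658 CPM had a log2 ratio of 0.58 (0.49 to 0.68), just under the call and 0.78 above the median of all genes. The medians of the 10 ER genes were -0.18, 0.23 and -0.38. Neutrophil markers in this gate summed to 9.21, 38.7, 97.8 and 26.7 CPM, of which CSF3R gave 7.87, 29.7, 85.5 and 20.4 CPM, and 2 of the 5 markers were at 0 at 4 h. Their part in these values was not tested. HSPH1 was also higher at 4 h (0.82, from 16.04 to 29.1 CPM). DNAJA1 was the higher gene at 2 h, at 159, 271, 203 and 168 CPM (0.76, interval 0.64 to 0.90), or 1.30 above the median of all genes. At 8 h HSPA14 (0.65) and DNAJC16 (0.88) were higher, on 25 UMIs or fewer, and among the 6 lower genes were DNAJC15 (-1.24), DNAJC25 (-0.86) and BAG1 (-0.77).

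**Figure D4:**
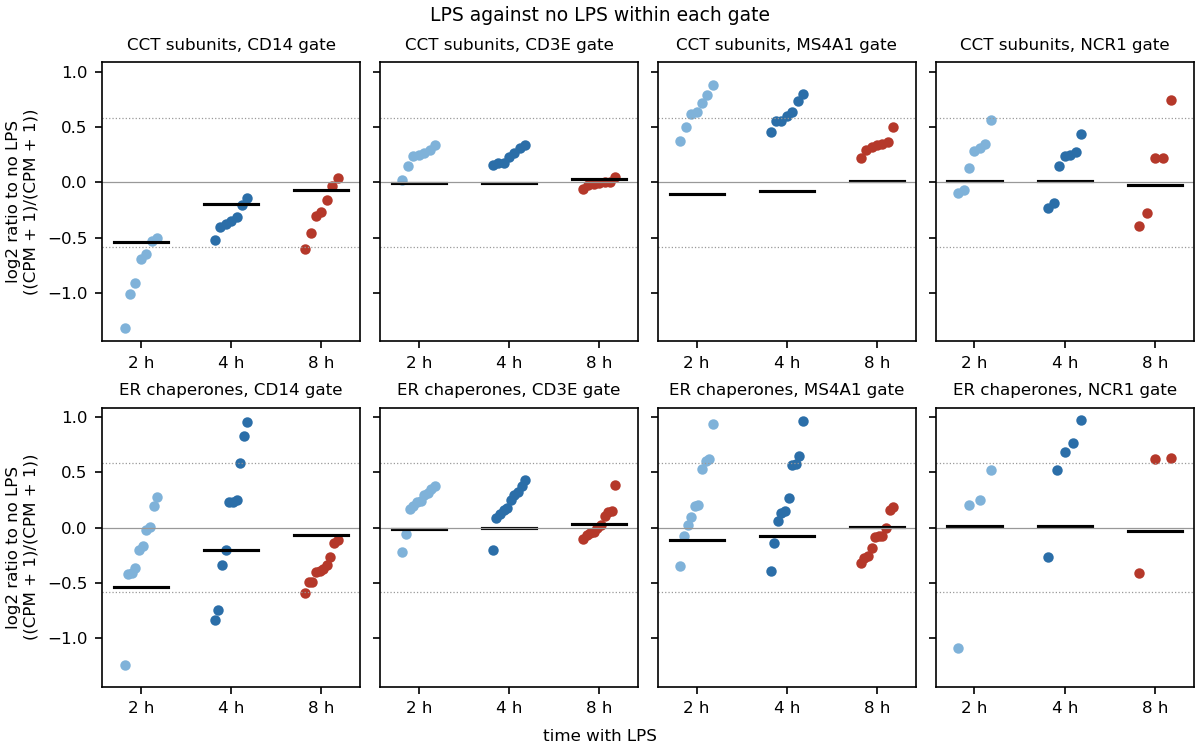
Log2 ratio to the library without LPS (y axis) of each CCT subunit and each ER chaperone compared, by gate (panels) and time with LPS (x axis), with the median of all genes as a black bar and 1.5-fold as dotted lines. In the MS4A1 gate all 7 CCT subunits lie above 0 at each time, in the CD14 gate all 7 lie below 0 at 2 h and 4 h, and in the CD14 gate all 10 ER genes lie below 0 at 8 h.

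Few genes were called among T cells. In the CD3E gate 0 of 60 chaperone genes were higher and 1 lower at 2 h (1.9% and 2.2% of all genes), 1 and 1 at 4 h (3.42% and 3.55%) and 0 and 1 at 8 h (3.17% and 1.84%), with medians of 0.12, 0.17 and 0.05 beside -0.01, -0.01 and 0.03. Besides HSPB1 these were HSPA2 at 2 h (-0.65) and DNAJC12 at 4 h (0.87). In the NCR1 gate 1 of 19 was higher and 2 lower at 2 h (11.3% and 5.42%), 2 of 18 and 1 at 4 h (11.7% and 6.8%) and 3 of 13 and 0 at 8 h (9.64% and 8.34%). The higher ones were DNAJA2 at 2 h, DNAJC3 and DNAJC10 at 4 h, and HSPA5, CCT5 and HSPD1 at 8 h, and the lower ones were DNAJC1 and HSPB1.

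Among 32 further genes of the chaperone pathway, such as prefoldins, HSF1 and the co-chaperones of HSP90, 31 were listed and 29 could be compared over all cells at 2 h and 4 h. None was called at 2 h or among the 28 at 8 h, and at 4 h HSPBP1, an HSP70 exchange factor (0.70), and CLPB, a mitochondrial disaggregase (0.64), were higher. Their medians were 0.08, 0.20 and 0.21.

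Chromatin accessibility was deposited as counts per gene and barcode, with 975012 counts in the library without LPS and 30250143, 26837579 and 11957904 counts at 2 h, 4 h and 8 h. The library without LPS held a median of 213 counts per barcode against 2250 to 5205 in the others, so its values are given as levels only, and it shared 228 barcodes with the 2 h library where other pairs shared 10 to 31. Of the 82 genes 67 were listed in at least 1 accessibility table, and 62 in all 4. HSPE1 was the one unlisted gene above 100 CPM of RNA.

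Between 2 h and 4 h none of the 66 chaperone genes compared was called, beside 0.971% higher and 3.72% lower of all genes, and the medians were 0.04 and -0.00. Between 4 h and 8 h 1 of 65 was higher and 5 were lower, beside 1.78% and 18.7%, with medians of 0.10 and -0.03. The higher one was HSPA2, an HSP70 best known from the testis, at 64.6 CPM without LPS and 9.98, 9.80 and 70.7 CPM at 2 h, 4 h and 8 h (log2 ratio 2.73). Its 2 h and 4 h libraries were low and the other 2 were high.

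CCT3 and BAG4 ran the other way. They had counts at 2 h and 4 h and were not listed in the other libraries, where their count was set to 0. CCT3 was at 6.31 and 7.56 CPM at 2 h and 4 h. BAG4, which binds HSP70 and death receptors, was at 5.85 and 5.59 CPM. Whether an unlisted gene had no count or was left out is not given, so no fold is printed at 8 h. The lower calls of CCT3 and BAG4 rest on that 0. DNAJB13, an axonemal J-protein, was not listed without LPS and was at 5.79, 6.56 and 1.09 CPM at 2 h, 4 h and 8 h.

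DNAJC18 was at 25.6, 24.9, 26.8 and 15.6 CPM (log2 ratio -0.74) and HSPB1 at 27.7, 36.4, 38.7 and 25 CPM (-0.61). HSPA8 had the highest accessibility count of the chaperone genes, at 328, 333, 329 and 405 CPM. All 10 ER genes lay above 0 at 8 h against 4 h, with a median of 0.21 and none called. This was not particular to them: HSPD1 (0.32) and HSPA8 (0.30) lay above 0 too, and others such as DNAJC6 (-0.43) below. How many of all genes lay above 0 was not counted.

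**Figure D5:**
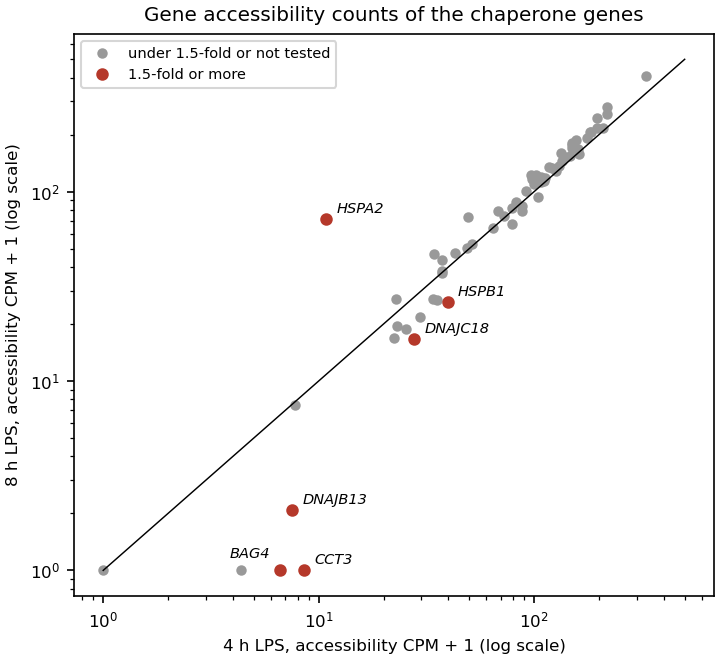
Accessibility count of each chaperone gene at 4 h (x axis) and 8 h (y axis), CPM + 1 on log scales, with genes past 1.5-fold in red and equal values on the line. HSPA2 lies above the line at 9.80 against 70.7 CPM, and CCT3 and BAG4, not listed at 8 h, are drawn at 0 CPM there.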

How the data were processed

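Single-cell RNA and chromatin accessibility were measured in 4 libraries each, 1 per treatment. For each gene in each barcode the authors deposited raw counts, processed with Cell Ranger on ARS-UCD1.2 (bosTau9). These were UMIs for RNA, and accessibility counts whose counting rule is not given. Genes and lists were chosen with earlier results of these data known. An RNA barcode was kept if it had 200 to 3000 genes, 200 UMIs or more and a mitochondrial share below 20%. Doublets were not called. Gates on 1 transcript with none of the other 3 leave out many mixed barcodes. UMIs were summed per library or gate, scaled to CPM and compared as log2 ratios with a pseudocount of 1 CPM (pandas 2.3.3, scipy 1.17.1), with exact Poisson intervals for CPM and exact binomial intervals for ratios at 95%. A gene was called at 1.5-fold. Gates were compared with edgeR 4.0.16 in R 4.3.3 (TMM, filterByExpr, quasi-likelihood test, Benjamini-Hochberg adjusted p under 0.05 over all genes), tested on simulated data. Differences between genes in single-cell 3' counts were not tested, and rankings and sums over genes describe counts only. Named were members at 100 CPM or more, the 5 largest rises and falls of each comparison over all cells, the 3 largest differences each way of each gate, and the HSF list. Further calls were named after their values were seen. Alternatives were other scalings (TMM, DESeq2 1.42.0), folds, pseudocounts, minimums, cell limits and gates, leaving out each library, no library term, and, chosen after seeing the data, equal class shares, CPM scaling in the gate test and accessibility without shared barcodes. No sequence or coordinate was used here, so the planned promoter motif search was not run.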

Additional observations from a re-analysis of the deposited data

Results flagged for a closer look

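In CCT6A the 2 h ratio to no LPS was past 1.5-fold in opposite directions in 2 gates, -1.32 on the log2 scale in the CD14 gate and 0.72 in the MS4A1 gate. DNAJC10 did so at 4 h, with -0.83 in the CD14 gate, on 5 UMIs at 4 h, and 0.69 in the NCR1 gate, on 13 and 38 UMIs. Both pairs were also past 1.5-fold in opposite directions after the median of all genes in each gate was subtracted. These differences between gates were not tested, since each gate has 1 library per treatment.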

How the results depend on the processing

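Depth and cell number set the limits: the NCR1 gate (38 to 97 cells) and the CD14 gate with LPS (66 to 308 cells) have wide counting intervals, 1 library per treatment leaves the LPS comparisons without replicate error, and accessibility without LPS is shallow. Of the values that answer a comparison, 332 kept their direction and size within 1.5 times and 92 did not. For gene and list values the counts were 3013 unchanged in that sense, 426 that moved, 6 that lost a call and 1 that turned. The cause of each change was not tested, apart from what the alternative's construction sets. No paired analysis was possible because each treatment has 1 library per assay. Leaving out a library was possible in the gate test only. The shares of all genes called under each alternative are not given, so the counts below show how calls moved and no excess over all genes.

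Over all cells, with no upper limit on genes and with every deposited barcode alike, 3 genes were lower at 2 h and 2 at 4 h (1 and 1 as reported). With cells averaged instead of summed 1 was higher at 2 h, 2 at 4 h, and 1 lower at 8 h. With the class shares of the library without LPS 1, 2 and 1 were higher at the 3 times and 0 lower at 8 h, and the 4 h median came to 0.15 from 0.23, and with a minimum of 1 UMI it came to 0.12. TMM and DESeq2 scaling alike gave 1 higher and 4 lower at 8 h (2 and 2 as reported), and a pseudocount of 0.1 CPM gave 5 higher. At a fold of 2 the counts were 0 higher and 0 lower at 2 h, 1 higher at 4 h, and 1 higher and 0 lower at 8 h.

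In the CD14 gate, a stricter gate gave 2 higher at 2 h and 1 at 8 h, the gate by most UMIs 3 lower at 4 h and 4 higher at 8 h, and no upper limit on genes 3 lower at 8 h. TMM scaling gave 4 higher and 5 lower at 2 h with a median of -0.0508 (-0.52 as reported), 6 lower at 4 h and 1 higher at 8 h. At a fold of 2 there were 0 higher at any time and 8, 1 and 1 lower. In the CD3E gate, the gate by most UMIs gave 0 lower at 2 h, a fold of 2 gave 0 lower at each time and 0 higher at 4 h, a pseudocount of 0.1 CPM gave 2 lower at 4 h, and no upper limit on genes gave 1 higher at 8 h.

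In the MS4A1 gate, no upper limit on genes gave 8 and 6 higher at 2 h and 4 h (13 and 13 as reported) and 2 lower at 8 h. The gate by most UMIs gave 4 lower at 2 h and 5 higher and 3 lower at 8 h, a pseudocount of 0.1 CPM gave 5 lower at 2 h and 5 higher at 8 h, and TMM scaling gave 20 higher and 1 lower at 2 h and 23 higher at 4 h. At a fold of 2 there were 1, 1 and 0 higher and 0, 1 and 0 lower.

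In the NCR1 gate, a stricter gate gave 0 higher at each time, 2 lower at 4 h and medians of -0.86 at 2 h and -0.86 at 4 h over 2 genes compared (0.17 and 0.21 over 19 and 18 genes as reported), and HSPB1 at 4 h, below the UMI minimum there, turned from -0.69 to 0.18. That gate held 7 cells without LPS. No upper limit on genes gave 4 higher at 2 h, the gate by most UMIs and TMM scaling 2 each, and a fold of 2 gave 0 higher at each time and 1 and 0 lower at 2 h and 4 h.

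For accessibility at 8 h against 4 h, a fold of 2 and the number of barcodes with a count each gave 3 lower (5 as reported), and leaving out shared barcodes gave 2 higher (1 as reported). In the gate test, CPM scaling without TMM factors gave 9 higher and 45 lower in the CD14 gate (20 and 18 under TMM), 23 and 6 in the CD3E gate (12 and 14), 9 lower in the MS4A1 gate (15) and 2 lower in the NCR1 gate (13). A stricter gate gave 1 higher and 4 lower in the NCR1 gate. Leaving out 1 library at a time gave 5 to 7 higher and 5 to 12 lower in the NCR1 gate, with the fewest higher without the 4 h or the 8 h library and the fewest lower without the 4 h library. In that gate DNAJC21 (-0.82 as reported) lost its call under CPM scaling (-0.52), with a stricter gate (-0.79) and without the 4 h library, HSPD1 (-0.79) with a stricter gate (-0.61) and without the 2 h library (-0.60), and DNAJA4 (2.04) with a stricter gate (2.02), each in the same direction.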
